A study of Mus musculus with 8 samples.

Results

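A set of 10 genes of the BCL2 family, chosen by symbol, were read from one comparison of mouse embryonic stem cells (mES cells) with and without METTL3. They are Bcl2, Bcl2l1, Mcl1, Bax, Bak1, Bcl2l11, Bid, Bad, Bbc3 and Pmaip1, 10 of the 17597 genes in the deposited table, and all 10 have a row in it. METTL3 is the enzyme of the m6A writer complex, which places N6-methyladenosine (m6A) on RNA. In both groups it carried the FKBP12 F36V tag, at its C terminus by the study's methods, and a protein with this tag is sent for degradation when the small molecule dTAG-13 is present. One group of 4 libraries came from cells kept in dTAG-13 for 26 h and the other group of 4 from untreated cells. Clones C3 and H5 each gave 2 replicates to either group, so each tagged line is 1 clone. All cells were of Cast x 129S background with a TetOn promoter in place of the Xist promoter, on the 129S allele according to the labels, and no doxycycline was given to either group. The study's text places that promoter on the Cast allele instead. They grew in serum and LIF on inactivated mouse fibroblasts, whose RNA can enter a library. The comparison asks which RNAs change in level when METTL3 is removed for about a day.

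The table held a mean count over the libraries, a log2 fold change, its standard error (SE) and a Wald test per gene, and no value per named library. Levels in each group are therefore given as means implied by the mean count and the fold change for 4 libraries against 4, which are approximate and have no SD. The 4 libraries of a group are clones and their replicates, and with nothing known of separate cultures, p-values measure the spread between these libraries. The mean counts of genes summed to 14573411 reads. Low counts fell on steps of 8 libraries whose size factors ran from 0.702 to 1.44. Which group is the numerator is not named in the table. Positive changes were taken to mean more RNA with dTAG-13, and every direction given here would turn if the contrast were inverted. Mettl3 RNA itself, which the degron does not target, averaged 684 normalized reads with a log2 fold change of -0.092 (SE 0.31, adjusted p = 0.886), so it does not check the direction or the labels.

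The BCL2 family decides whether the outer membrane of the mitochondrion is opened during apoptosis. Prosurvival proteins (BCL2, BCL-XL from Bcl2l1, MCL1) hold the pore-forming effectors BAX and BAK (from Bak1) in check. BH3-only proteins (BIM from Bcl2l11, BID, BAD, PUMA from Bbc3 and NOXA from Pmaip1) sense stress and either engage the effectors or occupy the grooves of the prosurvival proteins. Pluripotent cells are known to sit close to the apoptotic threshold, and Bax, Bbc3 and Pmaip1 are textbook targets of p53. Several of the family's RNAs also give rise to splice forms of opposing function, such as the long and short forms of Bcl2l1, which a count per gene does not separate. In bulk RNA, fewer cells expressing a gene and less RNA per cell cannot be told apart.

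Of the 4 genes that passed the threshold below, 3 have a promoter window in the RefSeq set of build GRCm38.p6, and these windows are shown because the genes differ in direction. Bcl2l1 and Bbc3 have 3 windows each and Bad has 2, and the one nearest to the start of the transcript used for the gene's length is shown. Each window runs from 250 bases before to 50 bases after an annotated start and is printed along the transcribed strand, with GC boxes (GGGCGG, or CCGCCC for the other strand) in capitals. The window of Bcl2l1 lies at chr2:152830668-152830967 on the minus strand, that of Bad at chr19:6941611-6941910 on the plus strand and that of Bbc3 at chr7:16309333-16309632 on the plus strand.
Bcl2l1: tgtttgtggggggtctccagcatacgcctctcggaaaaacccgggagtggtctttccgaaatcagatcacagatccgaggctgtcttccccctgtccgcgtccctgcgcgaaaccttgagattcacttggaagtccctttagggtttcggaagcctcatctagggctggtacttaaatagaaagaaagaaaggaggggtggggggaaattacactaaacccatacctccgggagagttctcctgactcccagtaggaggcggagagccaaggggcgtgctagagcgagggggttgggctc
Bad: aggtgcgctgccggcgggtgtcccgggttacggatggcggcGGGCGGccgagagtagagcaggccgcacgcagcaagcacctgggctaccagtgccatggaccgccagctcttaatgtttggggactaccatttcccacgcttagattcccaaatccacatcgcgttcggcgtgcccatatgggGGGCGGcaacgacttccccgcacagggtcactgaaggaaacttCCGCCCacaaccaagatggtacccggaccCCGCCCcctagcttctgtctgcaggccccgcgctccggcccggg
Bbc3: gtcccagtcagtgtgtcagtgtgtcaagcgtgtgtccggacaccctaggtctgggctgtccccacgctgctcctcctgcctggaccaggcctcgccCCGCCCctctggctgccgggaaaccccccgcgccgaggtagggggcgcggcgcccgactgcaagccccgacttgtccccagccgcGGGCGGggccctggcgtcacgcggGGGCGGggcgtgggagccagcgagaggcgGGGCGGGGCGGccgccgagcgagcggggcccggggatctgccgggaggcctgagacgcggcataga

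The printed Bad window held 4 GC boxes and 27 CpG dinucleotides, and the other Bad window held 0 GC boxes and 21 CpG. The printed Bbc3 window held 5 GC boxes, of which a pair overlap, and 34 CpG, and the other windows of Bbc3 held 4 and 7 GC boxes. The printed Bcl2l1 window held 0 GC boxes and 14 CpG, and the other windows of Bcl2l1 also held 0 GC boxes, with 1 and 22 CpG. Over the family, 15 windows were found for 9 of the 10 genes, and 10 of these windows, from 7 genes, held a GC box, against 35.7% of all 32851 mouse windows. Some genes have several starts and some of their windows overlap, so windows are not independent. The median window of the family held 27 CpG and the median of all windows 7. All windows came from 27025 genes and were not limited to genes expressed in these cells, whereas 9 of the 10 genes averaged 100 or more reads. The shares are therefore not matched for expression and are not read as particular to the family. A CCAAT box (CCAAT or ATTGG) was found in 4 windows from 3 genes (37.4% of all windows), and a TATA box (TATAAA or TTTATA) in 0 (13.6% of all windows). The p53 half-site was matched in 1 window, that of Bax (8.36% of all windows). These matches describe letters in a window and say nothing of binding.

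Per kb of transcript, the effector Bax and the prosurvival gene Mcl1 were the most abundant of the 10 RNAs. With the mean count divided by the length of one transcript per gene, Bax stood at 3037 normalized reads per kb and Mcl1 at 2307. Bid (424), Bak1 (306), Pmaip1 (306) and Bcl2l1 (285) followed, then Bcl2l11 (116), Bad (113) and Bbc3 (78.7). Bcl2, the founding member of the family, was close to the floor, at 2.07 normalized reads per kb and a mean count of 14.9. Summed per kb, the 3 prosurvival genes had an implied level of 2497 in untreated and 2691 in dTAG-13 cells, the 2 effectors 3418 and 3268, and the 5 BH3-only genes 1059 and 1015. Mcl1 alone held 2269 and 2345 of the prosurvival sum and Bax 3143 and 2931 of the effector sum. Neither gene passed the threshold below. These sums have no SE, and their differences between untreated and dTAG-13 cells were not tested. With no values per library, neighbours in this order could not be compared with their spread, and levels depend on the transcript chosen.

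**Figure D1:**
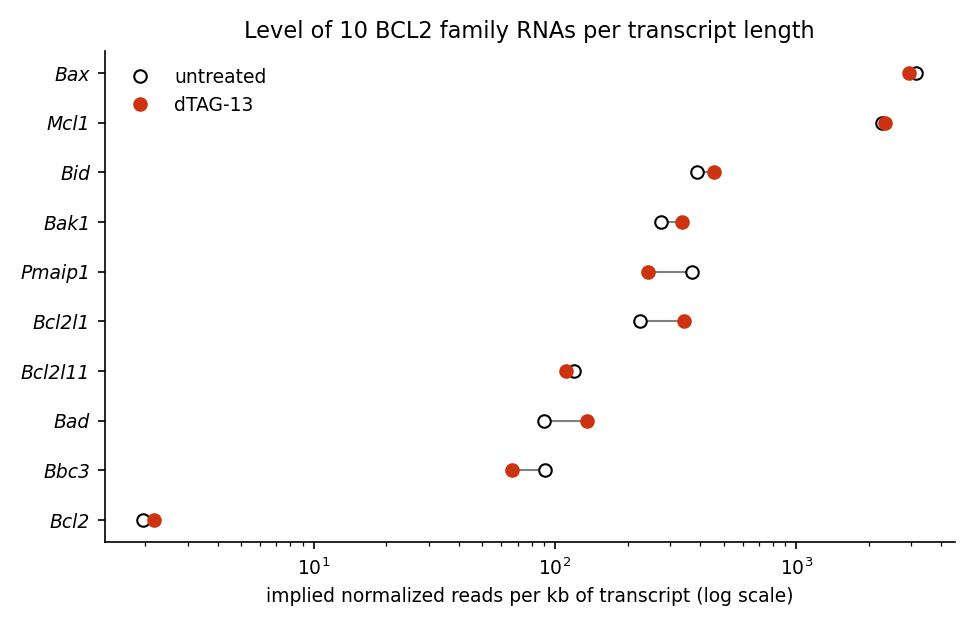
Implied level of each RNA in untreated (open) and dTAG-13 (filled) cells, in normalized reads per kb of transcript on a log axis, ordered by mean level. Bax and Mcl1 lie at the top and Bcl2 at 2.07 lies far below the rest, with larger gaps between groups for Pmaip1, Bcl2l1, Bad and Bbc3 than for Mcl1 or Bax.

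A gene was called changed when its adjusted p was under 0.05 (Wald test of DESeq2, Benjamini-Hochberg adjustment over all features). By this threshold 4 of the 10 genes changed. Bcl2l1 and Bad rose, Bbc3 and Pmaip1 fell, and the remaining 6 did not pass. Among all genes 20.0% passed, 10.7% higher and 9.35% lower. Among the 9899 genes that averaged 100 or more reads, the range in which all of the 10 except Bcl2 lie, 28.3% passed, 13.3% higher and 15.0% lower. The list is too short and was not tested as a set, so its count of 4 is not read as particular to the family. The median log2 fold change of the 10 was 0.096, against 0.025 for all genes and -0.05 for those averaging 100 or more reads. No change in the family reached 2-fold.

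**Figure D2:**
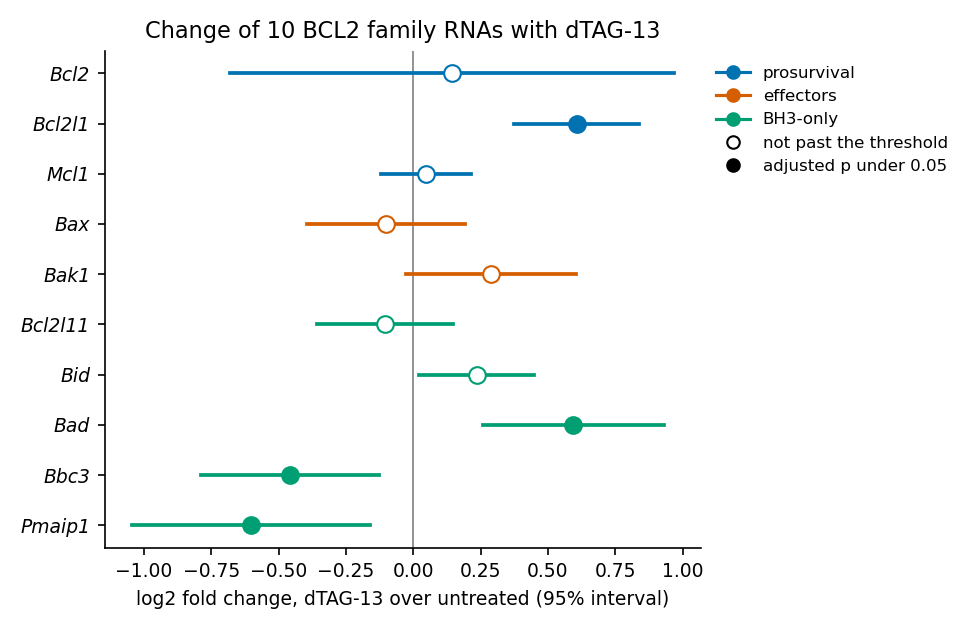
Log2 fold change of each gene, dTAG-13 over untreated, with its 95% interval from the SE; colours give the role and filled points have an adjusted p under 0.05. Bcl2l1 and Bad lie to the right of 0 and Bbc3 and Pmaip1 to the left, while the intervals of Bcl2, Mcl1, Bax, Bak1 and Bcl2l11 span 0.

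Of the prosurvival genes, Bcl2l1 rose and the other two did not pass. Bcl2l1 (chromosome 2, 152780668 to 152831728, minus strand, GRCm38) encodes BCL-XL, a major guardian of mitochondrial integrity in many tissues. Its implied mean went from 580 normalized reads in untreated cells to 883 with dTAG-13, around a mean count of 731. The fold was 1.52 (95% interval 1.30 to 1.79), a log2 fold change of 0.61 (SE 0.12, adjusted p = 1.00e-05), which was higher than 94.3% of genes that averaged 100 or more reads. It had the smallest p of the 10 and, of the 4 genes that changed, was the one that also passed a Bonferroni adjustment.

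Mcl1 (chromosome 3, 95658788 to 95663176, plus strand) encodes a short-lived prosurvival protein that the early mouse embryo needs. Its implied mean was 7756 in untreated and 8016 in dTAG-13 cells. The log2 fold change was 0.05 (SE 0.085, adjusted p = 0.772), and its 95% interval as a fold ran from 0.92 to 1.16, so a change larger than this was not seen in the most precisely measured gene of the family. Bcl2 (chromosome 1, 106538178 to 106714274, minus strand) had implied means of 14.1 and 15.6 and a log2 fold change of 0.14 (SE 0.42, adjusted p = 0.863). Its interval, 0.625 to 1.96 as a fold, is wide enough that a change as large as that of Bcl2l1 was not detectable at this depth.

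Neither effector passed. Bax (chromosome 7, 45461697 to 45466898, minus strand), which moves from the cytosol to the mitochondrion on activation, had implied means of 2725 and 2541 and a log2 fold change of -0.10 (SE 0.15, adjusted p = 0.718). Its 95% interval as a fold was 0.761 to 1.14. Bak1 (chromosome 17, 27019810 to 27029009, minus strand), whose product sits in the outer membrane beforehand, had implied means of 658 and 804 and a log2 fold change of 0.29 (SE 0.16, adjusted p = 0.222), with an interval of 0.982 to 1.52 as a fold. Both were measured with less precision than most genes of their abundance. Among the 500 genes nearest in mean count, the SE of Bax was at the 83.0th percentile and that of Bak1 at the 79.6th.

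The BH3-only genes did not move as one. Of the 5, Bad rose, Bbc3 and Pmaip1 fell, and Bid and Bcl2l11 did not pass. Bad (chromosome 19, 6941861 to 6951899, plus strand) encodes a sensitizer that survival kinases keep phosphorylated and bound to 14-3-3 proteins. Its implied mean went from 131 to 198, a fold of 1.51 (95% interval 1.20 to 1.91) and a log2 fold change of 0.59 (SE 0.17, adjusted p = 0.00534). BAD binds BCL-XL, the product of Bcl2l1, whose fold was 1.52. After a smooth trend of fold change on transcript GC content was taken out, the log2 fold change of Bad was 0.40 and Bad no longer passed (adjusted p = 0.0941).

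Bbc3 (chromosome 7, 16308393 to 16318205, plus strand) encodes PUMA, which binds every prosurvival member. Its implied mean went from 165 to 120, a log2 fold change of -0.46 (SE 0.17, adjusted p = 0.0380), or 1.37 times lower. Pmaip1 (chromosome 18, 66458533 to 66465565, plus strand) encodes NOXA, which binds MCL1 with preference. Its implied mean went from 1006 to 662, a log2 fold change of -0.60 (SE 0.23, adjusted p = 0.0418), or 1.52 times lower. The interval of Pmaip1 was wide, 0.485 to 0.895 as a fold, and its SE lay at the 95.6th percentile of the 500 genes nearest in mean count. Both calls stood near the threshold. When fold changes were re-centred on the median gene (a shift of 0.05 on the log2 scale), Bbc3 (-0.41, adjusted p = 0.0744) and Pmaip1 (-0.55, adjusted p = 0.0696) no longer passed. With the GC trend removed, Bbc3 passed with a log2 fold change of -0.71 (adjusted p = 0.000452), whereas Pmaip1 did not (-0.44, adjusted p = 0.175).

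Bid (chromosome 6, 120891930 to 120916853, minus strand), the link from caspase 8 to the mitochondrion, had implied means of 852 and 1003 and a log2 fold change of 0.23 (SE 0.11, adjusted p = 0.117). It passed after re-centring, at 0.28 (adjusted p = 0.0468). Bcl2l11 (chromosome 2, 128126038 to 128162547, plus strand) encodes BIM, a strong activator of the effectors. Its implied means were 605 and 562, with a log2 fold change of -0.11 (SE 0.13, adjusted p = 0.644).

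**Figure D3:**
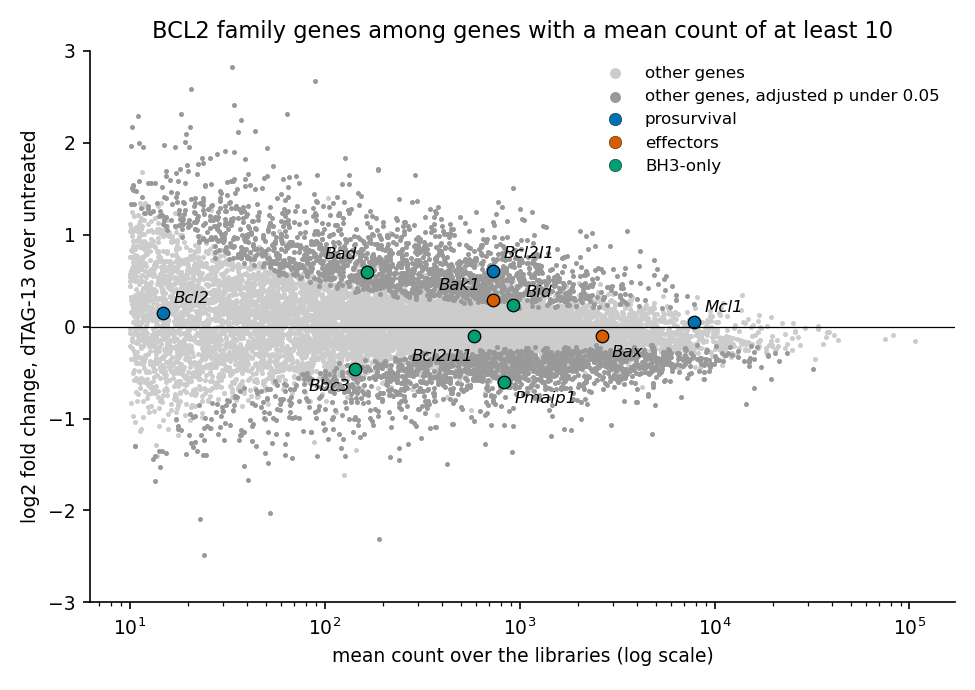
Log2 fold change (dTAG-13 over untreated) against mean count on a log axis for 13590 genes averaging 10 or more reads; darker grey points have an adjusted p under 0.05 and coloured points are the 10 genes by role. Bcl2l1 and Bad sit in the upper and Bbc3 and Pmaip1 in the lower band of called genes, with Mcl1 and Bax near 0 at high counts.

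The scaling of the fold changes decided some of these calls. As deposited, 2 of the 10 genes were higher and 2 lower. Re-centring gave 3 higher (Bcl2l1, Bid and Bad) and 0 lower, with 6 genes at an unadjusted p under 0.05, and 2 of the 4 original calls remained. Over all genes, re-centring moved the split from 1881 higher and 1645 lower to 2200 higher and 1239 lower. Removal of the GC trend left 1 higher (Bcl2l1) and 1 lower (Bbc3). Re-centring adds the same 0.05 to every gene. The GC trend moves each gene by its own amount, and none of the 10 log2 fold changes took the other sign when it was removed.

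**Figure D4:**
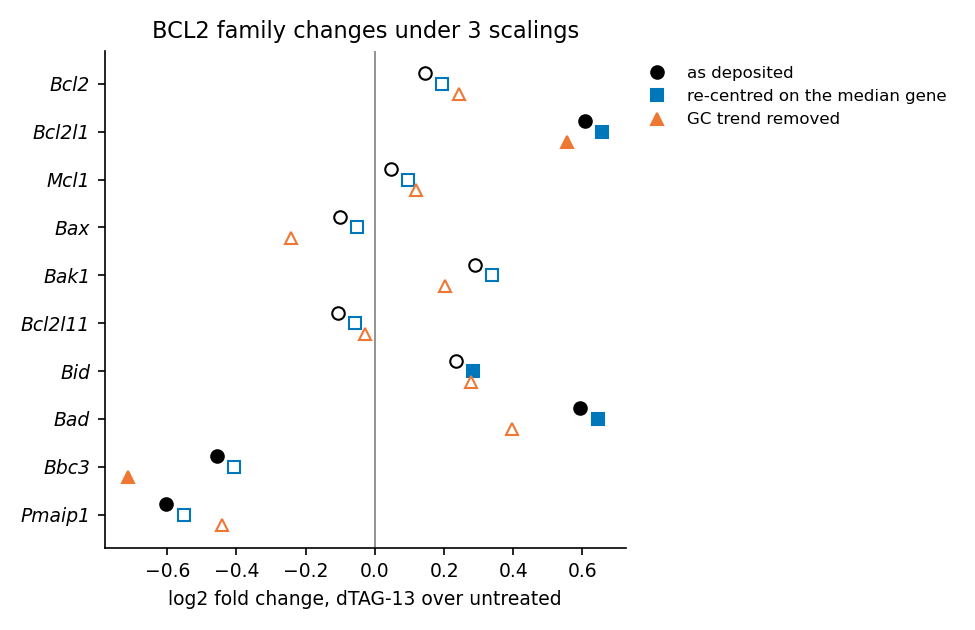
Log2 fold change of each gene as deposited (circles), re-centred on the median gene (squares) and without the trend on transcript GC content (triangles); filled symbols have an adjusted p under 0.05. Bcl2l1 is filled in all 3 scalings, Bad and Bbc3 in 2 each, and Pmaip1 and Bid in 1 each, and no gene crosses 0.

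The transcripts of the 10 genes are short in exons. They had 2 to 6 exons, with a median of 4, against a median of 10 over 9687 protein-coding genes averaging 100 or more reads. Exons per kb had a median of 1.69, against 3.62, with Bax (6.92) as the exception above the general median and Bcl2 (0.278) at the low end. Genes with 2 to 6 exons as a class, 2909 in number, had a median log2 fold change of 0.045. Of that class 20.7% were higher and 9.59% lower, against 13.5% and 14.9% of the 9687. The 4 genes of the family that changed had only 3 or 4 exons, too narrow a range to relate exon number to direction. Bcl2l1 (higher) and Pmaip1 (lower) both had 3 exons, as did Mcl1, and Bad (higher) and Bbc3 (lower) both had 4, as did Bcl2l11.

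GC content and the motif GGACT, one form of the sequence in which METTL3 methylates adenosine, also differed among the genes. Bbc3 (65.2% GC, 99.7th percentile of the same 9687 genes) and Bad (61.3%, 98.0th percentile) had the highest GC content of the family, and Pmaip1 (42.1%, 10.9th percentile) the lowest. The transcript of Bax held 3.46 GGACT per kb and that of Bbc3 2.76, while Bcl2l1 held 1.17 and Pmaip1 0.733. The median of the family was 1.75 per kb, against 1.04 for the 9687 genes. No m6A was measured in these libraries, and a motif is not a methylated site.

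Some of the reads may belong to neighbouring genes, since whether the authors' counting used strand is uncertain. Exons of Bad share 524 of 2558 bases with Gpr137 on the opposite strand, which averaged 94.8 normalized reads with a log2 fold change of 0.18 (adjusted p = 0.548), so the change of Bad is uncertain to that extent. Bid shares 628 of 3550 exon bases with Bcl2l13 on the opposite strand, which is itself a relative of the family (mean count 606, log2 fold change -0.076, adjusted p = 0.727). Bak1 shares up to 437 of 2407 exon bases with Ggnbp1 on the opposite strand (mean count 43.3). Bax shares 192 of 1576 exon bases with Gm45808 on the same strand, and Bcl2 shares 558 of 9157 with D630008O14Rik on the opposite strand, and neither neighbour has a row in the table. No exon of Bcl2l1, Mcl1, Bcl2l11, Bbc3 or Pmaip1 overlapped an exon of another annotated gene.

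The libraries carried the markers of the labelled cells. All 10 mES cell markers were detected, with mean counts from 1019 to 11934, and 2 of them (Tdgf1 and Dppa5a) fell. Their summed implied level was 70618 in untreated and 62554 in dTAG-13 cells. Of 12 fibroblast markers, 2 rose (Col5a1 and Twist1) and 10 did not pass. Their summed implied level was 6467 in untreated and 5046 in dTAG-13 cells, and without Fn1, the most abundant and left out after its level was seen, it was 717 and 913. Mean counts in this list ran from 0.768 to 4941 (Fn1), with Fbn1 at 361, Col5a1 at 226, Thy1 at 116 and Twist1 at 49.6, while the fibroblast collagens Col1a1 (19.8), Col1a2 (13.8) and Col3a1 (8.38) and the matrix genes Dcn (7.50) and Lum (1.45) were low. Of 7 primitive endoderm markers 1 rose (Foxa2) and 6 did not pass, and of 6 trophoblast markers 1 rose (Eomes), 1 fell (Tfap2c) and 4 did not pass. Only 1 of these endoderm and 3 of these trophoblast markers averaged 100 or more reads, with Foxa2 at 24.2. For all 4 marker lists the share to compare is 20.0% past the threshold among all genes, and 28.3% among genes averaging 100 or more reads. The part of other cell types in the changes of the BCL2 family was not tested.

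Around the family, 78 symbols of further apoptosis genes were listed by role, with March5 entered also under its newer symbol Marchf5. Of the 78 symbols, 75 were in the table, March5 among them. Of these, 7 were higher, 13 lower and 55 did not pass, a share of 26.7% against 20.0% of all genes and 28.3% of genes averaging 100 or more reads. After re-centring, 8 were higher and 10 lower. Their median log2 fold change was -0.067, and it was -0.12 for the 56 that averaged 100 or more reads. Of 15 other BCL2 family genes, Bcl2l2, which encodes the prosurvival protein BCL-W, rose by 0.71 (SE 0.13, adjusted p = 3.14e-06), and Bnip3l, which encodes a mitophagy receptor with a BH3-like stretch, was lower at -0.42 (SE 0.090, adjusted p = 7.42e-05). The other 13 did not pass. The fold of Bcl2l2 was 1.63, beside 1.52 for the prosurvival gene Bcl2l1, while the prosurvival genes Mcl1 and Bcl2 did not pass. Exons shared with other genes were looked for only in the 10 genes, so Bcl2l2 was not examined for them.

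Downstream of the mitochondrion, 1 of 10 genes of the apoptosome and of mitochondrial release rose and 2 fell. The shares among genes averaging 100 or more reads were 13.3% higher and 15.0% lower. Apaf1, the scaffold of the apoptosome, was lower (log2 fold change -0.48, adjusted p = 3.58e-05), as was Vdac2, an outer membrane channel that holds BAK (-0.27, adjusted p = 0.0353), whereas Endog, a mitochondrial nuclease, rose (0.55, adjusted p = 0.0133). The other 7 did not pass. Endog lost its call with the GC trend removed (0.31, adjusted p = 0.246), and Vdac2 lost it after re-centring (adjusted p = 0.106) and with the GC trend removed (adjusted p = 0.131). Of 7 caspase genes in the table, Casp8, whose product cleaves BID, rose (0.57, adjusted p = 0.0303), Casp2 was lower (-0.60, adjusted p = 0.000672) and 5 did not pass. Of 10 inhibitor of apoptosis genes, Birc3 rose (0.74, adjusted p = 0.00457) and 9 did not pass. Of these 10, 5 had a mean count under 10, where a change could hardly be detected, and 3 of the 7 caspase genes averaged 100 or more reads. Over all genes 10.7% were higher and 9.35% lower.

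Upstream of the family, 4 of 8 genes for ubiquitin enzymes of MCL1 and p53 fell and the other 4 did not pass, where 15.0% of genes averaging 100 or more reads were lower. Mdm4, a partner of MDM2 that restrains p53, had the largest change of these, a log2 fold change of -1.13 (SE 0.12, adjusted p = 1.02e-17), or 2.18 times lower. Usp9x, which removes ubiquitin from MCL1 (-0.47, adjusted p = 0.000321), Huwe1, which adds it (-0.57, adjusted p = 0.0446), and Usp7, which removes ubiquitin from MDM2 and p53 (-0.37, adjusted p = 3.81e-06), were also lower. Huwe1 lost its call after re-centring (adjusted p = 0.0753) and with the GC trend removed (adjusted p = 0.101), and the other 3 kept theirs under both.

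Of 9 genes for transcription factors that act on BH3-only genes, 1 fell and 8 did not pass. The share of lower genes was 9.35% among all genes and 15.0% among those averaging 100 or more reads, as 7 of the 9 did. Trp73, a relative of p53, had a log2 fold change of -1.01 (SE 0.30, adjusted p = 0.00737). Trp53, singled out after its value was seen because Bax, Bbc3 and Pmaip1 are its targets, did not pass. It averaged 2161 normalized reads, with a log2 fold change of -0.50 (SE 0.25, adjusted p = 0.154). Its SE lay at the 99th percentile of the genes nearest in mean count. Of the named targets, Bbc3 and Pmaip1 fell and Bax did not pass (-0.10, adjusted p = 0.718). These targets are named because they belong to the family. Targets of p53 outside it were not examined as a list, so no pattern over p53 targets is read from them. Whether p53 had a part in these changes was not tested.

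Of 16 genes for kinases and 14-3-3 proteins that act on BAD, 3 rose, 4 fell and 9 did not pass. Among genes averaging 100 or more reads, 13.3% were higher and 15.0% lower. Sfn, the 14-3-3 sigma gene, rose by 1.04 (adjusted p = 2.04e-07) and Ywhag by 0.40 (adjusted p = 0.0250), whereas Ywhaz (-0.37, adjusted p = 0.00167), Ywhaq (-0.34, adjusted p = 0.00948) and the S6 kinase gene Rps6kb1 (-0.39, adjusted p = 9.76e-05) were lower. The remaining 2 that changed, named after their values were seen, were Akt1 (0.53, adjusted p = 0.0281) and Pak1 (-0.38, adjusted p = 0.0319). Of the 20 calls in these lists, 17 remained once re-centred and 13 once the GC trend was removed. Pak1 was lost in both, and Akt1, Rps6kb1 and Ywhaq with the GC trend removed.

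**Figure D5:**
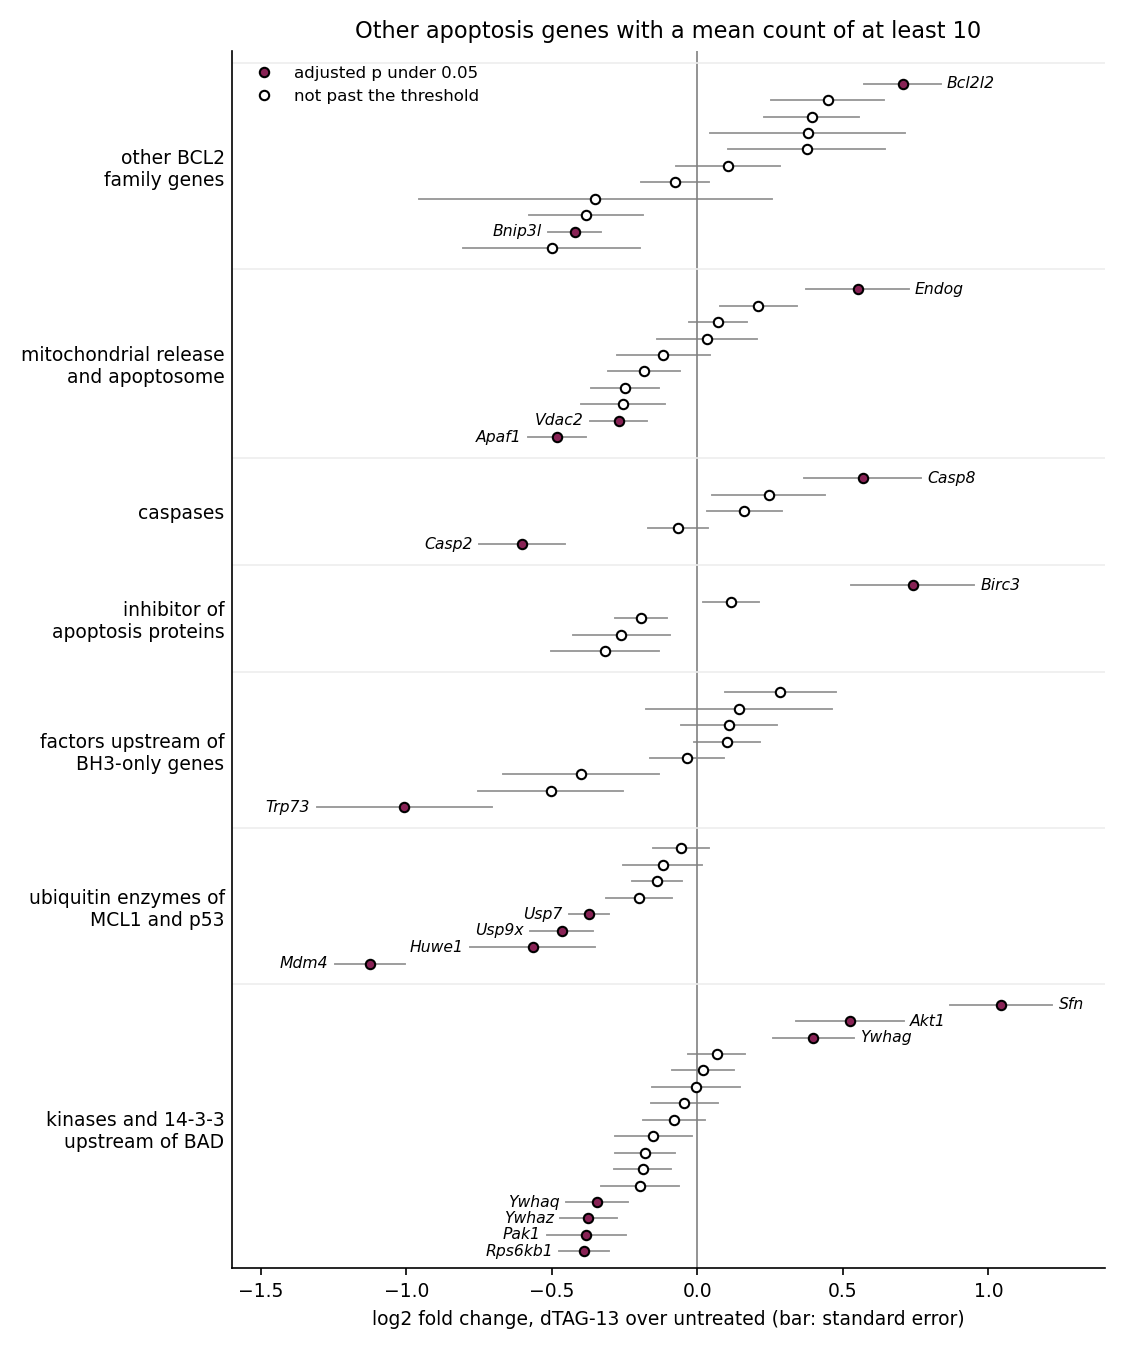
Log2 fold change (dTAG-13 over untreated) with SE bars for 63 apoptosis genes averaging 10 or more reads, outside the 10 described, grouped by role; filled and named points have an adjusted p under 0.05. The ubiquitin enzymes that pass all lie left of 0, with Mdm4 farthest at -1.13, while most other groups hold named genes on both sides.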

How the data were processed

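Per the labels and the study's methods, total RNA of 8 libraries was depleted of ribosomal RNA and sequenced in stranded, paired reads; the labels' extraction text describes chromatin RNA instead. The authors removed ribosomal reads with bowtie2, aligned the rest with STAR to mm10 with strain variants masked, kept unique reads, removed duplicates with Picard, and counted and tested genes with TEtranscripts at its defaults, which runs DESeq2. The authors deposited 1 table of 18694 features. Its signal column is the mean normalized count over the libraries, its deposited log2 fold change and SE come from the authors' fit without a term for clone, the deposited score holds Wald statistics, and p-values as deposited are two-sided and Benjamini-Hochberg adjusted over all features. To 6 digits these columns followed from one another in all 18694 features.

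From these columns, 95% intervals, implied group means, levels per kb and the alternatives were computed in Python 3.11.15 (pandas 2.3.3, scipy 1.17.1, statsmodels 0.14.6), and the scripts were tested on simulated data. Size factors were read from the steps of 506 features with a mean count under 0.6, all of which were whole reads of 8 libraries to within 1e-09. Positions, exons and GC content came from GENCODE vM21 (1 transcript per gene) and promoters from RefSeq GRCm38.p6. Named were all 10 genes, Mettl3, and of each other apoptosis list the genes past the threshold, or the 5 with the smallest p where there were more than 5. Markers of cell types are named outside this rule. The members and lists were chosen with earlier results of these data known. Alternatives were re-centring on the median gene (mean count of at least 100), removal of a lowess trend on GC content (span 0.3), a mean count of at least 10, genes only, Bonferroni, a t distribution with 6 degrees of freedom and a 1.5-fold minimum.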

Additional observations from a re-analysis of the deposited data

How the results depend on the processing

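Of the 7 alternatives, 5 change only the call and leave the log2 fold change as deposited, and re-centring adds one constant. Removing the GC trend could move the 10 BCL2 family genes singly, and it turned no sign. Of their 70 values under the alternatives 57 stayed on the same side of the threshold, 12 lost the call and 1, Bid after re-centring, gained it. Only the 4 genes called as deposited had a call to lose, so all 12 losses fell on them by definition. Of the 7 alternatives, Bbc3 and Pmaip1 each lost the call in 4, Bad in 3 and Bcl2l1 in 1. The count of these genes past the threshold was 4 as deposited, 4 with a mean count of at least 10 or over genes only, 3 after re-centring, 3 with a 1.5-fold minimum, 2 with the GC trend removed and 1 (Bcl2l1) by Bonferroni. Referred to a t distribution with 6 degrees of freedom, the Wald statistic of DESeq2 gave 0 calls, with 4 of the 10 at an unadjusted p under 0.05. The same distribution gave 0 calls among the 75 other apoptosis genes tested (20 at an unadjusted p under 0.05) and 0 among all 17597 genes (3876 at an unadjusted p under 0.05). Bonferroni left 5 other apoptosis genes and 747 genes, and the 1.5-fold minimum left 6 and 1599. The t distribution, Bonferroni and the 1.5-fold minimum are stricter rules, under which a gene could only lose a call. The cause of the other changes was not tested. Leaving out a replicate, and the count tests of edgeR and DESeq2, were not run, since values per library were not analysed here, so a single clone or library behind a call could not be looked for. No paired analysis was possible because the table carries no values per library. The depth limits Bcl2, at a mean count of 14.9.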
